A study of Mus musculus with 18 samples.

Results

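Small lymphoma cells that grew out after Adriamycin (ADR), a DNA-damaging drug, given with 4-hydroxytamoxifen (4-OHT) were compared with cells of the same lymphoma that grew out after ADR alone. The comparison rests on 4 of the 18 samples of the study, 17 of which held values, because 2 of the 3 lymphomas, numbered 4146 and 4936, had both arrays. For each gene the probe set of highest mean signal over the arrays was taken, and 11234 of 18194 named genes were tested across the genome.

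All cultures were primary B-cell lymphomas from lymph nodes of Eµ-myc mice with a C57/Bl6 background, in which an immunoglobulin enhancer drives the Myc oncogene in B cells. All of them lacked Suv39h1, and all had been transduced with Bcl2, which blocks apoptosis, and with Suv39h1-ERT2, a fusion protein that 4-OHT activates. ADR outgrowth cells had received ADR for 5 days and then 14 days of drug-free medium (n = 2). Small outgrowth cells had received ADR and 4-OHT for 5 days, then the same 14 days, and were sorted by flow cytometry as morphologically small (n = 2). Beside them stood untreated cells, cells after 5 days of ADR, cells after 5 days of ADR with 4-OHT, and big outgrowth cells, sorted as morphologically big after both compounds (each n = 3). Ages of the mice were not given in the sources used here.

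The labels name a sort for the small and big cells and none for the ADR outgrowth, and no group received 4-OHT without ADR. The activation of Suv39h1, 4-OHT itself and the sort therefore cannot be told apart in this comparison. The protein carrying Suv39h1 activity was a retroviral fusion, and the array level of Suv39h1 was not analysed here.

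Suv39h1 is a methyltransferase that places methyl groups on lysine 9 of histone H3, the mark of silent heterochromatin. In senescence, a lasting arrest that DNA-damaging drugs such as ADR can induce, this mark covers promoters of E2F target genes, the genes that drive DNA replication. Cells that leave such an arrest resume the cell cycle, in which E2F factors, replication proteins and mitotic kinases are made in turn.

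The 4 arrays resembled untreated arrays of their own lymphoma in the identity checks. Xist signals ran from 5.89 to 6.49 on them, against 11.97 or more on 3 arrays outside the comparison (ADR 5 d of 4936 and both sorted outgrowths of 5043). None of 20 immunoglobulin variable region probe sets lay 2 or more log2 units off on any of the 4 arrays, against 3 to 5 on those 3. ADR with 4-OHT 5 d of 4146 also stood apart, with a low Xist of 2.78 and 1 such probe set off. Big outgrowths of 4146 and 4936 had Xist at 7.85 and 8.99 and 0 such probe sets off. These arrays stayed in the fit. The gap between 3′ and 5′ control probe sets for Actb, a sign of RNA quality, was 1.33 in ADR outgrowth and 1.53 in small outgrowth of 4146, and 1.26 and 1.81 in those of 4936. The gap for Gapdh was 0.34 and 0.42 in 4146 and 0.44 and 0.67 in 4936, and that for Tfrc 2.30 and 1.89 in 4146 and 1.18 and 1.90 in 4936. The gaps for Actb and Gapdh were thus larger in the small cells of both lymphomas and that for Tfrc in 4936 but not in 4146, and their part in the results was not tested. Offsets between lymphomas had been removed from the deposited values. Differences are therefore taken within a lymphoma, and where groups are said not to overlap, this is read on the values after that removal. The share of all genes tested whose groups do not overlap was not computed. Most named genes were chosen by their differences on these same 4 arrays, so a lack of overlap describes their values and is no support.

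No gene passed at an adjusted p of 0.05 (limma, Benjamini-Hochberg over 11234 genes, lowest adjusted p = 0.207), which is 0.00% of those tested. An unadjusted p under 0.05 was reached by 1621 genes (14.4%), of which 655 were higher in the small cells (5.83% of genes) and 966 lower (8.60%). The difference had the same sign in both lymphomas for 6399 genes (57.0%), with 3292 higher in both (29.3%) and 3107 lower in both (27.7%). At least a 2-fold difference in both lymphomas was seen for 80 genes in the higher direction (0.712%) and 80 in the lower direction (0.712%). All differences below are log2 signal of small minus ADR outgrowth, given for 4146 first, and since none passed they are values and not calls. Counts of list members are to be read against the shares of all genes above, and a count near such a share is no result about a list.

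Lymphoma 4936 differed more widely than 4146. The SD of the difference over genes was 0.72 in 4936 and 0.58 in 4146, and 1653 and 837 genes respectively differed by 2-fold or more. Across genes, which are not independent replicates, the differences of the lymphomas correlated with Pearson r = 0.191 and Spearman rho = 0.188. With 2 pairs an exact paired permutation test of 1 gene cannot give a p below 0.5, and the spread therefore came from all 16 arrays of the fit, with a median SE of 0.27 for a gene.

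**Figure D1:**
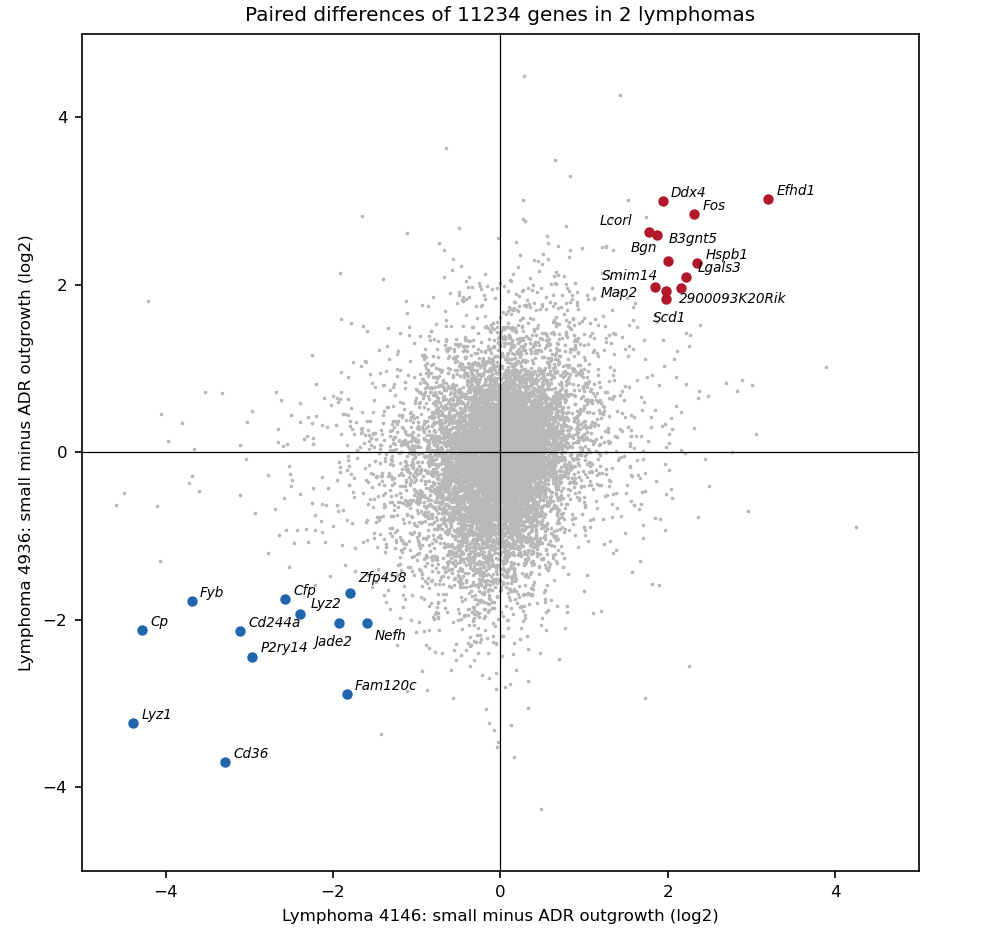
Each grey point is 1 of 11234 genes, with its log2 difference (small minus ADR outgrowth) in lymphoma 4146 on the horizontal axis and in 4936 on the vertical axis. Red and blue points are the 12 genes with the largest difference shared by both lymphomas in each direction, from Efhd1 at 3.20 and 3.02 to Cd36 at -3.29 and -3.70, while the cloud as a whole has r = 0.191.

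The genes highest in the small cells of both lymphomas included a calcium-binding protein of mitochondria, an immediate early transcription factor and a small heat shock protein. They were ranked by the smaller of their 2 paired differences, and the 12th, Lcorl, lay at 1.78 against 1.74 for Rgs13, the next gene. Of these 12 genes, 9 had an unadjusted p under 0.05. The median of all values, 4.86, served as the floor in the filter on low values, and 3 of the 12 had a value under it. With such values set to the floor, 10 of the 12 kept their place and Lgals3 and Ddx4 did not.

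Efhd1, which encodes a calcium sensor of the inner mitochondrial membrane, read 6.43 in ADR outgrowth and 9.63 in small outgrowth of 4146, and 5.08 and 8.10 in those of 4936. Both small arrays lay above both ADR outgrowth arrays, which the ranking by paired difference favours. The mean difference was 3.11 (SE 0.73, 8.65-fold), with an adjusted p of 0.228 (limma). Untreated cells read 6.13 and 7.85, and big outgrowth cells 7.98 and 6.54.

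Fos, a subunit of the AP-1 transcription factor, read 8.65 and 10.96 in 4146 and 7.47 and 10.32 in 4936. Its groups did not overlap, with a mean difference of 2.58 (SE 0.86, limma adjusted p = 0.263). Untreated cells lay between the groups in 4146, at 8.82, and near the small cells in 4936, at 10.05. Big outgrowth cells, at 11.71 and 9.88, also stood above ADR outgrowth.

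Hspb1, the small heat shock protein Hsp27, had the lowest adjusted p of all genes tested. It read 7.06 and 9.41 in 4146 and 7.22 and 9.48 in 4936, a mean difference of 2.30 (SE 0.36, 4.94-fold, limma adjusted p = 0.207). The small cells of both lymphomas stood above ADR outgrowth and also above untreated cells, which read 6.68 and 8.12. So did big outgrowth cells, at 9.01 and 9.05, so that the higher level was not particular to the small cells. The other probe set of Hspb1 gave 2.46. In 12 runs that each left out 1 array outside the comparison, it passed in 1, without the untreated array of 4146 (limma adjusted p = 0.0138). That single run makes no call.

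Smim14, a small membrane protein, read 9.46 and 11.62 in 4146 and 9.26 and 11.22 in 4936. The untreated level of 4936, 11.11, lay next to that of its small cells, while that of 4146, 10.10, lay between its outgrowths and nearer to ADR outgrowth. B3gnt5, a glycosyltransferase that starts the lacto-series of glycolipids, read 5.81 and 7.68 in 4146 and 5.35 and 7.95 in 4936. Neither gene's groups overlapped, and the mean differences were 2.06 (SE 0.50) and 2.23 (SE 0.76).

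Lgals3 and Bgn encode galectin-3, a lectin abundant in macrophages, and biglycan, a matrix proteoglycan. Lgals3 read 4.77 and 6.98 in 4146 and 3.69 and 5.79 in 4936, and Bgn read 6.30 and 8.30 in 4146 and 4.92 and 7.21 in 4936. Both ADR outgrowth values of Lgals3 were under the floor, so that it entered the test through the small cells, and at the floor its differences were 2.13 and 0.93. Both were higher still in big outgrowth cells, where Lgals3 read 9.72 and 12.41 and Bgn 10.81 and 12.01. Since the arrays measured whole cultures or sorts, a different share of a cell type and a different amount of RNA per cell cannot be told apart, for these genes or any below.

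Of the remaining higher genes, Scd1, the desaturase that makes oleic acid, differed by 1.97 and 1.83, and its small cells (8.88 and 8.50) read close to untreated cells (9.07 and 8.54). Map2, a microtubule-binding protein of neurons, differed by 1.84 and 1.98 (1.61 at the floor in 4936), and Lcorl, a transcription factor, by 1.78 and 2.64. Only 3 of the 6 probe sets of Lcorl were higher. All 4 of Map2 were, but the smallest of their mean differences was 0.03. Ddx4, a helicase of germ cells, read 3.29 and 5.23 in 4146 and 3.03 and 6.03 in 4936. Both of its ADR outgrowth values were under the floor, and at the floor the differences were only 0.38 and 1.17. The transcript 2900093K20Rik differed by 1.98 and 1.93.

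**Figure D2:**
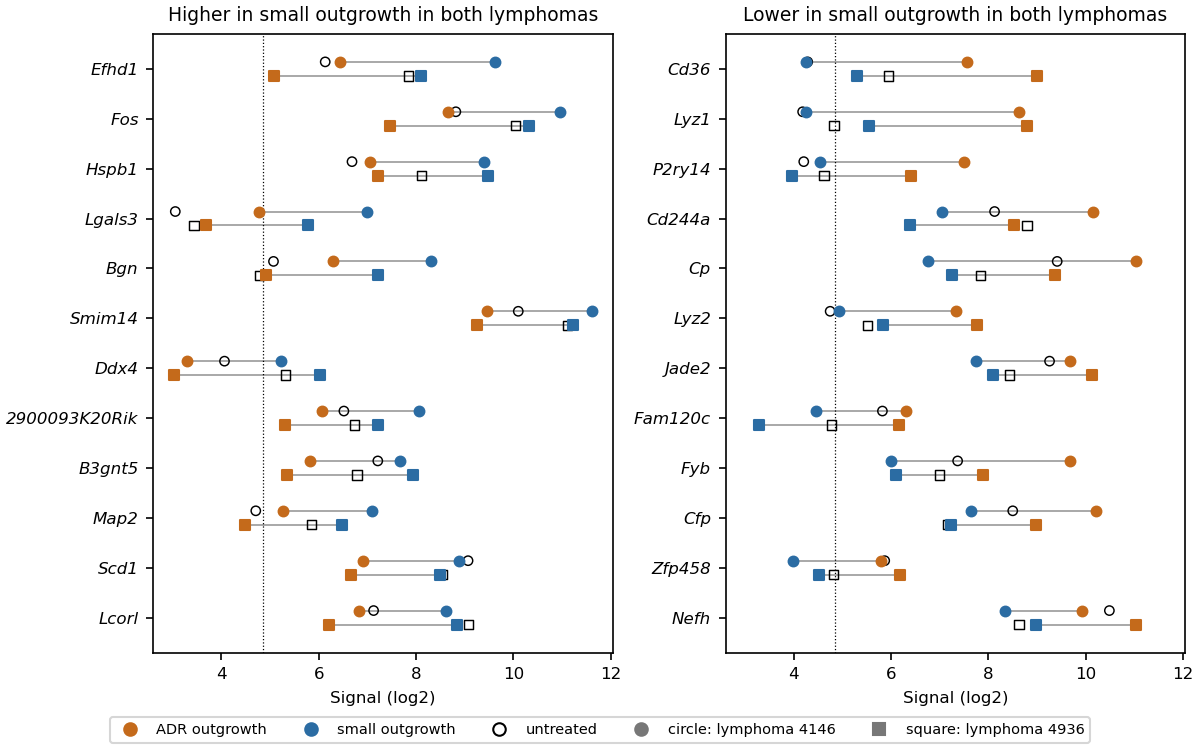
Log2 signal of the 12 higher genes (left) and the 12 lower genes (right) in ADR outgrowth (orange), small outgrowth (blue) and untreated cells (open), with lymphoma 4146 as circles and 4936 as squares. A line joins the 2 outgrowths of a lymphoma, the dotted line is the floor of 4.86, and small Lyz1 at 4.25 and 5.56 sits near untreated at 4.18 and 4.83.

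The genes lowest in the small cells of both lymphomas included Cd36, Lyz1, P2ry14, Cp and Cd244a. Here too the rank was by the smaller paired difference, and the 12th, Nefh, lay at -1.60 against -1.58 for Zfp719, the next gene. An unadjusted p under 0.05 was reached by 8 of the 12. A value under the floor was present in 5 of them, and with such values at the floor 10 kept their place and Fam120c and Zfp458 did not.

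Cd36, a fatty acid and lipoprotein receptor of macrophages, read 7.55 in ADR outgrowth and 4.26 in small outgrowth of 4146, and 8.99 and 5.29 in those of 4936. Both small arrays lay below both ADR outgrowth arrays, by a mean of -3.49 (SE 0.87, limma adjusted p = 0.228). The small array of 4146 was under the floor, and the mean was -3.20 with that value at the floor. The small cells were within 1 log2 unit of untreated cells (4.29 and 5.95). After 5 days the level had been 8.09 and 11.02 with ADR and 9.52 and 9.38 with ADR and 4-OHT, and it was 8.40 and 6.65 in big outgrowth.

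Lyz1 and Lyz2 encode lysozyme, an enzyme that cuts bacterial cell walls. Lyz1 read 8.64 and 4.25 in 4146 and 8.79 and 5.56 in 4936, and Lyz2 read 7.33 and 4.94 in 4146 and 7.77 and 5.84 in 4936. For both genes the groups did not overlap and the small cells read close to untreated cells, which had 4.18 and 4.83 for Lyz1 and 4.75 and 5.51 for Lyz2. The fit gave -3.81 (SE 1.48) for Lyz1, whose small array of 4146 was under the floor (-3.51 at the floor), and -2.16 (SE 1.45) for Lyz2, and the probe sets of these near-identical genes can share signal. All 3 probe sets of Lyz1 were lower, but 1 of them by a mean of only -0.12.

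P2ry14, a receptor for UDP-glucose, read 7.50 and 4.53 in 4146 and 6.41 and 3.97 in 4936. Cd244a, a receptor of the SLAM family on NK and other immune cells, read 10.14 and 7.04 in 4146 and 8.52 and 6.38 in 4936. The small cells were the lower ones in each pair, and for Cd244a they were below untreated cells as well (8.13 and 8.80). Their mean differences were -2.70 (SE 0.88) and -2.62 (SE 0.54), with limma adjusted p-values of 0.262 and 0.228. Both small arrays of P2ry14 were under the floor, so that it entered the test through ADR outgrowth, and its mean difference was -2.10 at the floor.

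Cp, which encodes the copper protein ceruloplasmin, differed by -4.28 and -2.13, and all 8 of its probe sets were lower. Fyb, an adaptor of T cell and myeloid signalling, differed by -3.69 and -1.78, and Cfp, the complement regulator properdin, by -2.58 and -1.75. For these 3 genes the larger difference was that of 4146. Jade2, a subunit of a histone acetyltransferase complex, differed by -1.93 and -2.04, and Nefh, a neurofilament subunit, by -1.60 and -2.04. Fam120c and Zfp458 were under the floor on both small arrays and entered through ADR outgrowth. Fam120c differed by -1.84 and -2.89 (-1.45 and -1.31 at the floor) and Zfp458 by -1.79 and -1.68 (-0.93 and -1.34 at the floor). Of the probe sets for Jade2 and for Fam120c, 1 of 2 was lower. The other probe sets of Cfp and Zfp458 had mean differences of only -0.46 and -0.19.

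Of the 24 genes, the small cells were nearer to untreated cells than ADR outgrowth cells were for 9 in 4146 and 18 in 4936, and for 7 in both lymphomas. The share of all genes on this measure was not computed. Since the 24 were chosen for a large difference between the outgrowths, these counts are no result. Over all genes tested, the share lying 2-fold or more from untreated cells was 6.39% in ADR outgrowth and 5.28% in small outgrowth of 4146. In 4936 it was 12.7% and 3.06%. These shares use the same untreated array for both outgrowths of a lymphoma and carry no test.

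Genes of DNA replication were lower in the small cells of both lymphomas in 40 of 48 tested members, against 27.7% of all genes. They were higher in both in 0, against 29.3%. With an unadjusted p under 0.05, 25 were lower, against 8.60% of all genes, and 0 were higher, and none passed. The median difference was -0.80 over the list and -0.01 over all genes tested. It was larger in 4936 (-1.29) than in 4146 (-0.24), and the count of 25 was 1 when 4146 alone gave the difference and 32 when 4936 alone did. It was 20 without the 3 arrays with high Xist, and 32 when ADR with 4-OHT 5 d of 4146 was left out as well. Against untreated cells of the same lymphoma, the median of the list was -0.08 in ADR outgrowth and -0.43 in small outgrowth of 4146, and 0.51 and -0.84 in those of 4936.

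Licensing factors load the replicative helicase onto origins. Cdc6, a loader, read 9.55 in ADR outgrowth and 8.69 in small outgrowth of 4146, and 10.25 and 8.13 in those of 4936. Its groups did not overlap, and the mean difference was -1.49 (SE 0.37, limma adjusted p = 0.228). Orc6, a subunit of the origin recognition complex, read 9.81 and 8.87 in 4146 and 10.35 and 8.84 in 4936, and Gmnn, the licensing inhibitor geminin, read 10.62 and 9.89 in 4146 and 11.09 and 9.51 in 4936. In both genes the small cells of the 2 lymphomas lay under both ADR outgrowth arrays.

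Helicase subunits and fork proteins differed in the same direction. Mcm4 differed by -0.65 and -1.69, and Mcm5 by -0.26 and -2.39, the largest gap between lymphomas among the replication genes named. Wdhd1, which links the helicase to the primase polymerase, read 9.42 and 8.26 in 4146 and 9.98 and 8.13 in 4936, a mean difference of -1.51 (SE 0.38). Among nucleotide and polymerase genes, Rrm2, a subunit of ribonucleotide reductase, differed by -0.76 and -1.29, and Pola1, the catalytic subunit of polymerase alpha, by -0.32 and -1.27. In 8 members the lymphomas had opposite signs, among them Prim2, a primase subunit, at -0.21 and 1.11.

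Promoters of replication genes are textbook sites of E2F factors, and 4 stretches are shown because these genes reached an unadjusted p under 0.05 in the lower direction and hold an E2F motif. The sequences come from the RefSeq table of the GRCm38.p6 build, each within the 250 bases before a gene's start and on the gene's strand, with matches in capitals.
Mcm5: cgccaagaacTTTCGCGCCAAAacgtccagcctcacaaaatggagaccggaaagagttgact
Uhrf1: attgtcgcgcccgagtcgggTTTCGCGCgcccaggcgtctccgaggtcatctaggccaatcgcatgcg
Orc1: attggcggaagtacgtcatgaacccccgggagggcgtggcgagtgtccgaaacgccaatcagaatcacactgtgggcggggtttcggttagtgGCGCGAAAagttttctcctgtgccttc
Pola1: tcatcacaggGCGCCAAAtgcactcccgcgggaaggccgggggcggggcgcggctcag

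These lie at chr8:75109346-75109407 (plus strand), chr17:56304108-56304175 (plus), chr4:108579334-108579453 (plus) and chrX:93632246-93632303 (minus). The letters searched were TTTGGCGC and TTTCGCGC on both strands, and in Mcm5 a match on each strand overlaps the other. Of 39 replication genes tested with a window in the table, 6 held a match (15.4%), against 205 of 27025 genes (0.759%). In 2 other lists described below, a match was held by 0 of 25 homologous recombination and Fanconi genes and 0 of 18 cholesterol synthesis genes. A match is a description of these letters and no evidence of binding.

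Uhrf1, which carries DNA methylation through replication, read 9.79 and 9.22 in 4146 and 10.74 and 8.71 in 4936. Orc1, the largest subunit of the origin recognition complex, differed by -0.21 and -1.45. In both genes, as in Mcm5 and Pola1, the difference in 4936 was several times that in 4146.

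**Figure D3:**
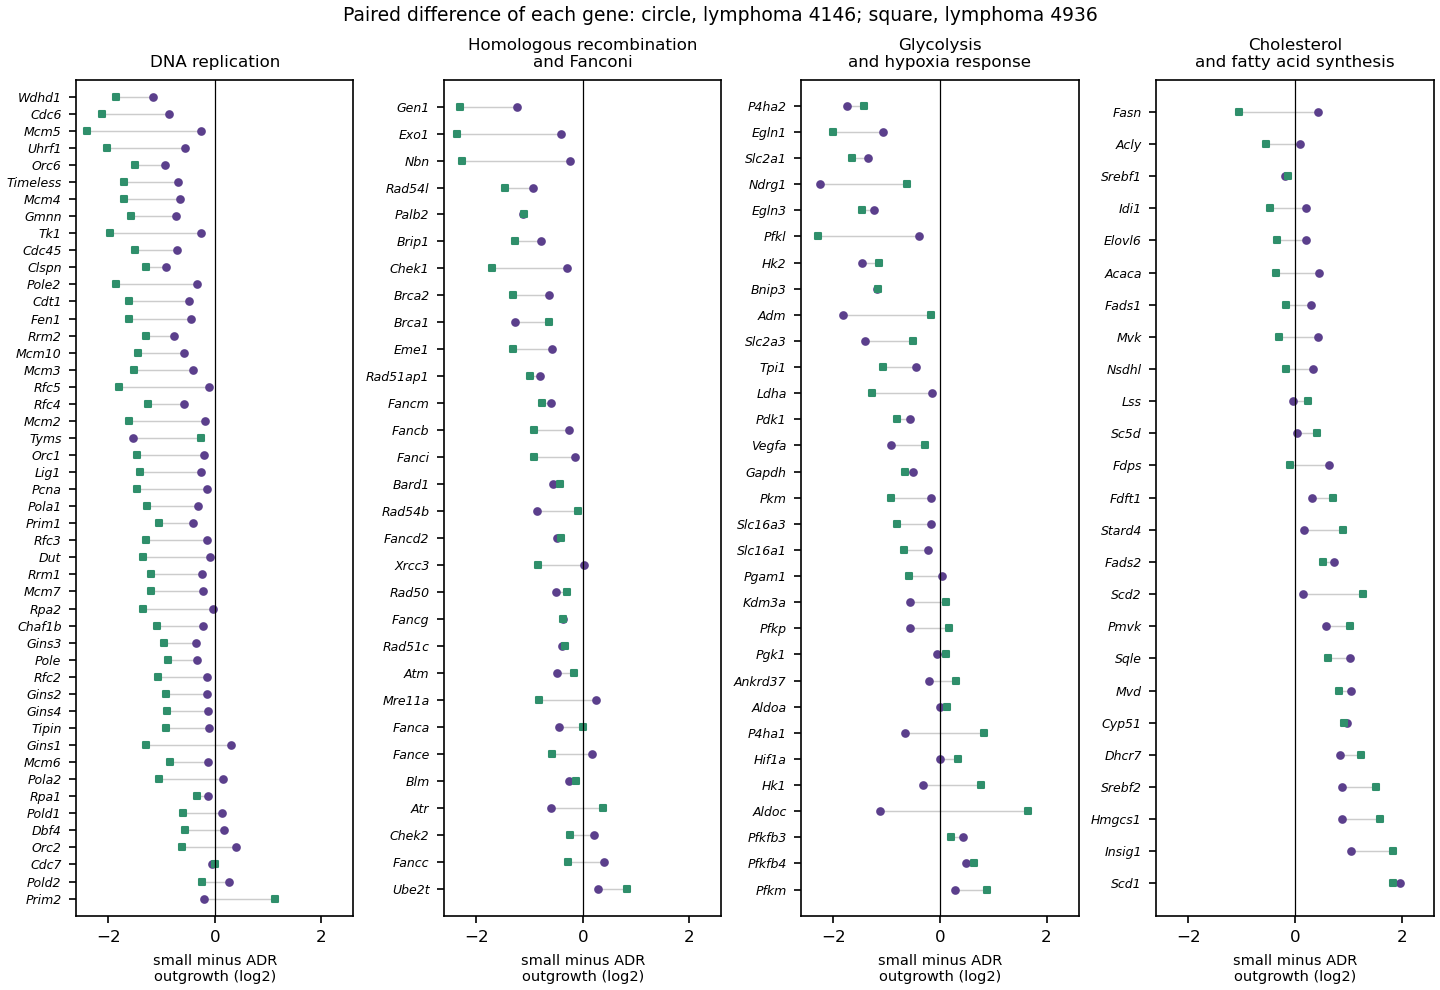
Each row is 1 tested gene of 4 lists, with its log2 difference (small minus ADR outgrowth) in lymphoma 4146 (circle) and 4936 (square) joined by a line, sorted by the mean. In the replication list most squares lie further left than the circles, with Tyms and Prim2 among the exceptions (medians -1.29 and -0.24). In the cholesterol list 14 of 25 genes lie right of 0 in both lymphomas, against 29.3% of all genes.

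Genes of homologous recombination and the Fanconi pathway, which repair double-strand breaks and crosslinks, were lower in both lymphomas in 22 of 30 members, against 27.7% of all genes, and higher in both in 1. Of the 30, 13 had an unadjusted p under 0.05 in the lower direction, against 8.60% of all genes, and 0 in the higher. The median was -0.46 in 4146 and -0.70 in 4936. The count of 13 was 1 when 4146 alone gave the difference. Palb2, which brings Brca2 to breaks, read 8.32 and 7.19 in 4146 and 8.21 and 7.11 in 4936, nearly the same difference in each lymphoma (-1.12 and -1.10). Gen1, a resolvase of Holliday junctions, differed by -1.24 and -2.30, and Exo1, a nuclease that resects ends, by -0.41 and -2.36.

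The E2F genes themselves were among the list of cyclin-dependent kinase inhibitors and senescence regulators, of which 6 of 26 were lower with an unadjusted p under 0.05, against 8.60% of all genes, and 0 were higher. E2f8, a repressor of the E2F family, read 9.54 and 8.38 in 4146 and 9.51 and 7.92 in 4936. E2f3, E2f7 and E2f1 differed by -1.0 and -1.29, by -1.15 and -0.84, and by -0.41 and -1.16. Of 2 probe sets for E2f3 only 1 was lower, with the other at a mean difference of 0.02, and the second for E2f8 lay at -0.09. Ccne2, a cyclin of the entry into S phase, differed by -0.90 and -1.36. The 6 genes were these 5 and Cdk4, and none is an inhibitor of cyclin-dependent kinases.

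Of 56 mitosis and kinetochore genes, 31 were lower in both lymphomas, against 27.7% of all genes, and 4 higher in both. With an unadjusted p under 0.05, 4 were lower and 0 higher, so that the lower count lay near the 8.60% of all genes. The median was -0.15 in 4146 and -0.38 in 4936. Mybl2, a transcription factor of late cell cycle genes, differed by -0.50 and -2.0. Cdc25b, a phosphatase that starts mitosis, lay the other way, at 1.35 and 0.87.

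Glycolysis and hypoxia genes were lower by a similar amount in both lymphomas, with medians of -0.51 and -0.59. Of 31 members, 18 were lower in both, against 27.7% of all genes, and 5 higher in both. An unadjusted p under 0.05 was reached by 8 in the lower direction, against 8.60% of all genes, and by 0 in the higher. That count was 5 when 4146 alone gave the difference. Slc2a1, the glucose transporter Glut1, read 12.43 in ADR outgrowth and 11.09 in small outgrowth of 4146, and 11.20 and 9.55 in those of 4936. Small cells were the lower ones in each lymphoma.

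Hk2, the hexokinase that traps glucose in the cell, differed by -1.47 and -1.14 (SE 0.35 of the mean). Egln1 and Egln3, the oxygen-sensing prolyl hydroxylases, differed by -1.07 and -2.0 and by -1.23 and -1.46. P4ha2, a collagen prolyl hydroxylase that hypoxia induces, differed by -1.74 and -1.42, and Bnip3, a mitophagy receptor, by -1.18 and -1.17. Gapdh, often used as a reference gene, differed by -0.51 and -0.66. Pfkm, the muscle form of phosphofructokinase, lay the other way, at 0.27 and 0.88.

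Oxidative phosphorylation genes differed mainly in 4936, with medians of -0.03 in 4146 and -0.55 in 4936. Of 33 members, 9 were lower with an unadjusted p under 0.05, against 8.60% of all genes, and 1, Atp5d, was higher. Cycs, cytochrome c, differed by -0.47 and -1.51, and Uqcrq, a subunit of complex III, by -0.36 and -1.33. Of the 4 probe sets of Uqcrq, 3 were lower, and the highest mean difference among them was 0.41.

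Cholesterol and fatty acid synthesis genes were higher in the small cells in both lymphomas in 14 of 25 members, against 29.3% of all genes. They were lower in both in 1, against 27.7%. An unadjusted p under 0.05 was reached by 8 in the higher direction, against 5.83% of all genes, and by 0 in the lower, and none passed. The medians were 0.44 and 0.52, and the median of the mean differences, 0.51, was 0.27 with the 1 member under the floor, Fads2, set to it. The count of 8 was 0 when 4146 alone gave the difference, and 6 when 4936 alone did. Against untreated cells the list median was -1.32 in ADR outgrowth and -0.58 in small outgrowth of 4146, and -0.21 and 0.25 in those of 4936.

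Srebf2, the transcription factor that senses low cholesterol, read 8.52 and 9.39 in 4146 and 7.73 and 9.25 in 4936. Its groups did not overlap, with a mean difference of 1.19 (SE 0.29, limma adjusted p = 0.228). Insig1, which retains the precursor of that factor in the endoplasmic reticulum, differed by 1.05 and 1.83. Hmgcs1, which makes HMG-CoA, read 9.78 and 10.66 in 4146 and 9.90 and 11.49 in 4936, against 11.64 and 10.11 in untreated cells. Further along the pathway, Sqle, Cyp51 and Dhcr7 differed by 1.04 and 0.62, by 0.97 and 0.92, and by 0.84 and 1.24. Fasn, the fatty acid synthase, did not share the pattern and had opposite signs in the 2 lymphomas.

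The stretch before the start of Hmgcs1 is shown because it is the 1 of 18 genes of this list with a window that held the sterol response letters TCACNCCAC (5.56%, against 331 of 27025 genes or 1.22%, both strands searched). The replication list also held 1, in 39 genes (2.56%), and the homologous recombination and Fanconi list 1 in 25 (4.0%). A single match thus does not set the cholesterol list apart. The Hmgcs1 stretch lies at chr13:119690204-119690350 on the plus strand of GRCm38.p6, again from the RefSeq table, with the match in capitals.
Hmgcs1: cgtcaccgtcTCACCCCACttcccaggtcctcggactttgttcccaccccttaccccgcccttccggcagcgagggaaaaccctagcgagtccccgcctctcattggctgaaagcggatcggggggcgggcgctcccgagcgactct

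Of 36 members of the B-cell identity and receptor list, 15 were higher in both lymphomas (29.3% of all genes were), 3 lower in both (27.7% of all genes), and 18 had opposite signs. The medians were 0.52 and 0.11. With an unadjusted p under 0.05 there were 3 in each direction, near the 5.83% higher and 8.60% lower of all genes. Cd22, an inhibitory co-receptor, read 8.54 and 10.81 in 4146 and 8.46 and 9.86 in 4936, and untreated cells read 10.33 and 10.35. The ADR outgrowth thus lay below both other states in each lymphoma, with a mean difference of 1.84 (SE 0.45, limma adjusted p = 0.228). Cd79a, a signalling chain of the B-cell receptor, differed by 1.76 and 0.90, and Pou2af1, a B-cell coactivator, by 2.48 and 0.67. Rag1, which cuts DNA in receptor gene rearrangement, differed by 2.88 (2.57 at the floor) and 0.87. The 3 lower ones were Cd86, a costimulatory ligand (-2.0 and -0.88), Cd72, an inhibitory receptor (-0.99 and -0.88), and the kinase Syk (-0.60 and -1.17).

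Of 13 plasma cell programme genes, 8 were higher in both lymphomas and 2 lower in both, against 29.3% and 27.7% of all genes. With an unadjusted p under 0.05, 4 were higher and 1 lower, against 5.83% and 8.60% of all genes. Slamf7, a receptor of plasma cells, differed by 2.70 and 0.82. The lower gene was Prdm1, the repressor Blimp-1 that drives plasma cell differentiation, which read 10.03 and 6.92 in 4146 and 7.71 and 7.20 in 4936. Prdm1 thus lay opposite to the 8 higher members.

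Among 20 homing and adhesion genes, 4 were higher with an unadjusted p under 0.05, against 5.83% of all genes, and 2 lower, near the 8.60% of all genes. S1pr1, the receptor that lets lymphocytes leave lymph nodes, read 5.97 and 8.22 in 4146 and 6.71 and 7.98 in 4936, and untreated cells read 7.73 and 8.82. Its mean difference was 1.76 (SE 0.39, limma adjusted p = 0.228), and its groups did not overlap. Cxcr5 and Ccr7, which guide B cells to follicles and T zones, differed by 1.33 and 1.70 and by 1.12 and 1.22. Selplg, the P-selectin ligand, differed by 0.94 and 1.05.

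The median of the immediate early genes had opposite signs in the lymphomas, -0.35 in 4146 and 1.32 in 4936. In this list 5 of 22 were higher and 1 lower with an unadjusted p under 0.05, against 5.83% and 8.60% of all genes. Egr2, a zinc finger factor of activated lymphocytes, read 7.16 and 8.59 in 4146 and 3.99, under the floor, and 8.27 in 4936. Egr1 differed by 0.28 and 4.50, with ADR outgrowth at 11.46 in 4146 and 7.25 in 4936 and small cells at 11.75 in each. Dusp2, a phosphatase of MAP kinases, differed equally in both (1.54 and 1.52). The lower gene was Ier3, at -4.10 and -0.64.

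Inflammatory lists had opposite median signs in the lymphomas. The interferon response median was -0.93 in 4146 and 0.37 in 4936, with Parp14 at -3.04 and -0.08 and Gbp2 at -4.21 and 1.81. Another probe set of Parp14 had a mean difference of -0.0012. The NF-kB median was -0.80 and 0.18, and that of chemokine ligands and receptors -1.52 and 0.18, with Ccr1 at -4.59 (-4.29 at the floor) and -0.63. Ribosome biogenesis and Myc targets had 0.37 and -0.55, and p53 targets outside apoptosis -0.30 and 0.68. Of the secretory factors of senescent cells, Mmp13 and Il1b were under the floor in small cells of 4146. At the floor, Mmp13 differed by -3.97 and -0.49 and Il1b by -1.77 and -0.28. For none of these lists can 1 direction be given for both lymphomas.

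**Figure D4:**
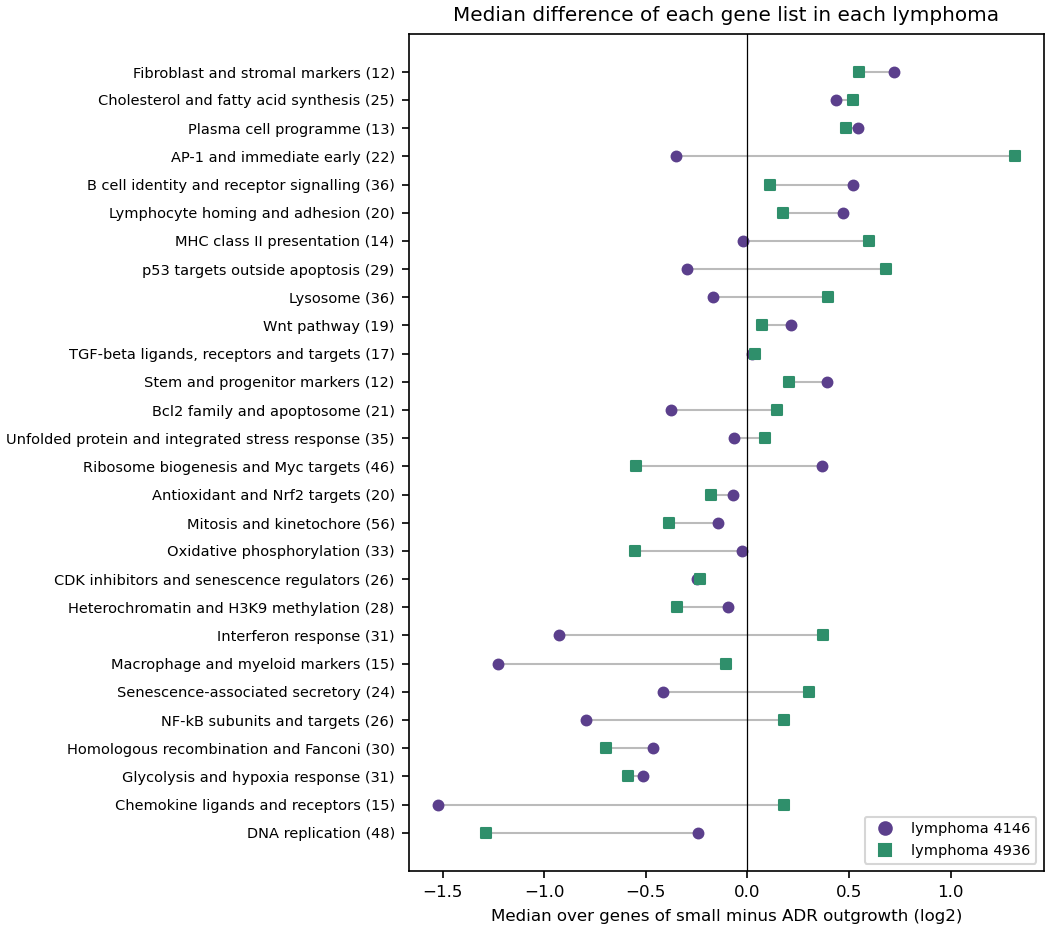
Median log2 difference (small minus ADR outgrowth) over the tested genes of each list with at least 10 of them, in lymphoma 4146 (circles) and 4936 (squares), with the number of genes in brackets. Replication lies lowest by the median of the mean differences (-0.80) and in 4936 (-1.29). In 4146 it lies at -0.24, and several lists lie lower, down to the chemokine list at -1.52. Cholesterol synthesis lies right of 0 in both (0.44 and 0.52), and the interferon, NF-kB, chemokine and immediate early lists span 0.

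In the stress response list of the endoplasmic reticulum and of Atf4, 5 of 35 genes were higher with an unadjusted p under 0.05, against 5.83% of all genes, and 3 lower, near the 8.60% of all genes. The higher ones were chaperones and foldases of the endoplasmic reticulum: Hspa5, the chaperone BiP, differed by 0.88 and 0.41, Pdia6 by 0.81 and 0.67, Calr by 0.49 and 0.59, Pdia4 by 0.76 and 0.31, and Manf by 0.58 and 0.33. Hspa5 read 12.43 in ADR outgrowth and 13.32 in small outgrowth of 4146, and 12.78 and 13.20 in those of 4936. The lower ones, Chac1, Mthfd2 and Pck2, differed by -2.78 and -0.27, by -0.78 and -0.77, and by -0.67 and -0.82.

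Of 36 lysosome genes, 4 were higher with an unadjusted p under 0.05, against 5.83% of all genes, and 2 lower, against 8.60%. Ctsh, a protease, read 8.69 and 9.79 in 4146 and 8.58 and 9.77 in 4936, and Neu1, a sialidase, read 8.15 and 8.95 in 4146 and 7.46 and 8.84 in 4936. In both genes the small cells stood above both ADR outgrowth arrays. The lower genes were Ids, a sulfatase (-1.10 and -0.62), and Mcoln1, a calcium channel (-0.90 and -0.76). Hmox1, the haem oxygenase that Nrf2 induces, read 8.13 and 6.86 in 4146 and 7.54 and 5.38 in 4936, and in its list 2 of 20 genes were lower and 1 higher at that p, near the shares of all genes. Among apoptosis genes, Apaf1, Bak1 and Xiap were the 3 of 21 with such a p, against 14.4% of all genes in either direction. They differed by -0.95 and -0.54, by -0.37 and -0.64, and by -0.61 and -0.49.

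Suv39h2, the relative of Suv39h1 that the cells still carried, read 7.38 and 6.92 in 4146 and 8.01 and 6.59 in 4936. Its groups did not overlap, all 3 of its probe sets were lower, and the mean difference was -0.94 (SE 0.30, limma adjusted p = 0.262). Of 28 genes of heterochromatin and H3K9 methylation, 8 were lower with an unadjusted p under 0.05, against 8.60% of all genes, and 0 higher, with medians of -0.10 and -0.34. They included Mbd1, a reader of methylated DNA (-0.54 and -0.70), Cbx5, the heterochromatin protein HP1 alpha (-0.35 and -0.68), and Ezh2, the H3K27 methyltransferase (-0.44 and -0.96). Uhrf1 is in this list and in the replication list.

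Myc differed by 0.71 and 0.56 (mean 0.64, SE 0.33) from ADR outgrowth levels of 11.42 and 11.97, and Max, its partner, by 0.47 and -0.04. Bcl2, which all cells received by transduction, differed by -0.59 and 1.51, and Cdkn1a, the kinase inhibitor p21, by -1.24 and 1.18. Only 1 of the 5 probe sets of Bcl2 had the sign of its mean difference, 0.46. The part of the transduced gene in this signal was not tested. Cdkn2a, the locus of p16 and p19Arf, differed by -0.22 in 4146, and in 4936 both arrays (3.88 and 4.26) were under the floor, so that no sign is read there. Bcl2, Max and Cdkn1a thus had opposite signs in the lymphomas, and Trp53 was not analysed here.

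Of 8 B-cell markers with a probe set, all were above the floor on 3 of the 4 arrays, and 7 in ADR outgrowth of 4146, where Ms4a1 was under it. Their mean level was 7.71 in ADR outgrowth and 8.87 in small outgrowth of 4146, and 8.20 and 8.39 in those of 4936. Of 10 macrophage markers, 6 in ADR outgrowth and 4 in small outgrowth of 4146 were above the floor, and 5 and 6 in those of 4936, while C1qa, C1qb, Adgre1 and Cd14 were under it on all 4 arrays. The mean level of the 10 was 6.35 and 4.79 in 4146 and 5.60 and 5.16 in 4936, lower in the small cells of both. Without Lyz1 and Lyz2, the mean of the other 8 was 5.94 and 4.84 in 4146 and 4.93 and 5.02 in 4936, so that in 4936 the lower mean came from the lysozymes, while Cd68 differed by -1.23 and 1.21. Of the wider list, 15 genes were tested. In both lymphomas 8 were lower and 1, Lgals3, higher, against 27.7% and 29.3% of all genes. With an unadjusted p under 0.05, 2 were lower, Cd36 and Lyz1, against 8.60% of all genes. Itgam read 8.23 and 4.17 in 4146 and 4.46 and 4.91 in 4936, so that it was clearly above the floor on 1 array only. The part of such cells in the lower Cd36, Lyz1 and Lyz2 was not tested.

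Fibroblast markers were higher in the small cells, from a mean level of 4.77 to 5.86 in 4146 and from 4.29 to 5.04 in 4936. Col1a2, Fn1 and Sparc differed by 2.22 and 0.82, by 1.43 and 1.91, and by 2.11 and 1.21, while Col1a1, Col3a1, Lum and Pdgfrb stayed under the floor on all 4 arrays. In ADR outgrowth of 4936, Fn1 (4.30) and Sparc (4.78) were under the floor, and at the floor Fn1 differed by 1.36 there. Only 1 of the 2 probe sets of Fn1 was higher, the other having a mean difference of -0.07. Of the wider list, 12 of 24 genes were tested. With an unadjusted p under 0.05, 2 of them were higher, Bgn and Pdgfra, against 5.83% of all genes. The median difference of the 12 was 0.72 and 0.55, and for big minus ADR outgrowth it was larger, at 2.31 and 2.19. Pdgfra rose from ADR outgrowth values under the floor (4.38 and 4.55). Whether stromal cells took part in the higher Bgn was not tested. All 3 erythroid markers, 5 of 6 neutrophil markers and 4 of 5 NK cell markers were under the floor on every one of the 4 arrays. Of 6 T cell markers, between 3 and 5 were above the floor, and of 5 endothelial markers 2 were on each array. Pecam1, an adhesion molecule of endothelium and of leukocytes, differed by -0.94 and -1.59.

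**Figure D5:**
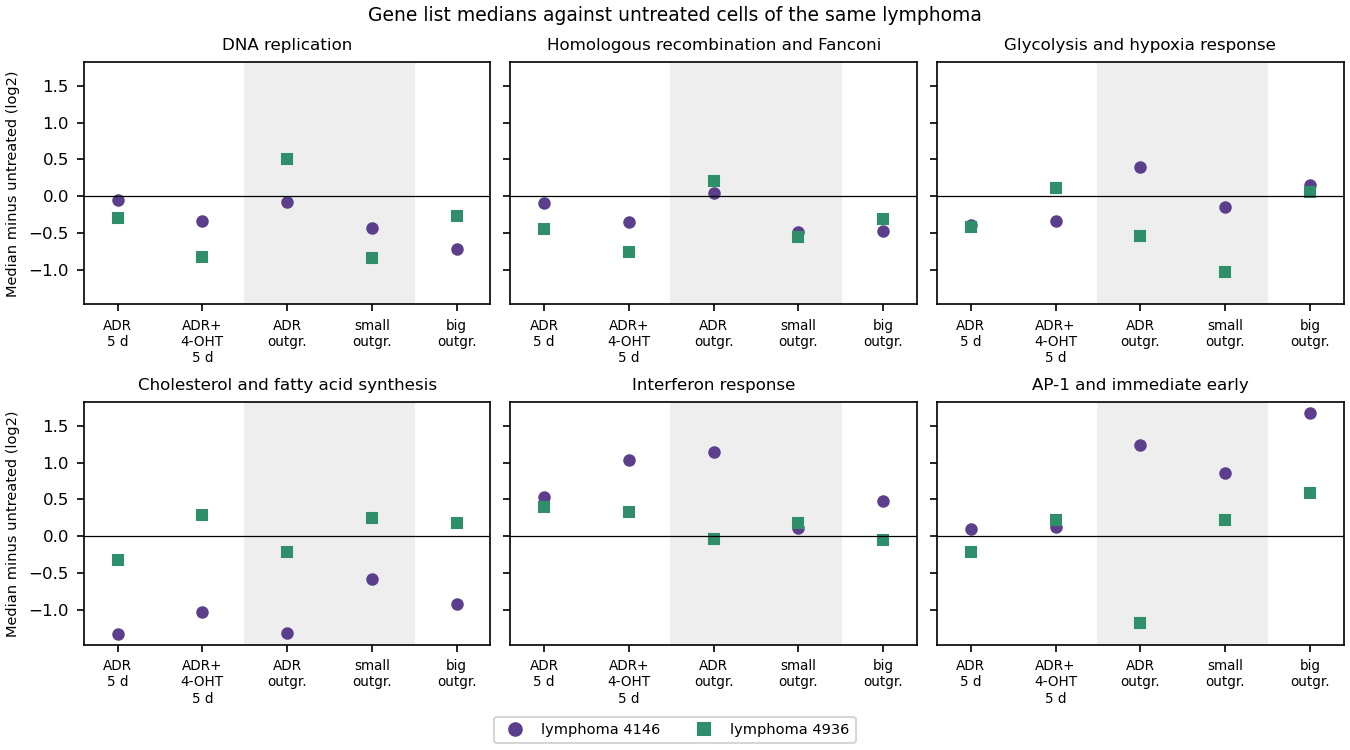
Median log2 difference of 6 gene lists from untreated cells of the same lymphoma, in 5 groups, with lymphoma 4146 as circles and 4936 as squares and the compared groups shaded. Replication genes of 4936 lie at 0.51 in ADR outgrowth and -0.84 in small outgrowth, and immediate early genes at -1.18 and 0.22.

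Set against untreated cells, the replication difference in 4936 had a part from each outgrowth, since ADR outgrowth lay above and small outgrowth below the untreated level. The repair list read 0.04 and -0.49 in 4146 and 0.20 and -0.56 in 4936 for ADR and small outgrowth. Of these compared outgrowths, the small cells were thus the ones further from untreated, and big outgrowth cells were also below it. In the glycolysis list ADR outgrowth of 4146 was above untreated, at 0.40, and that of 4936 below it, at -0.54, with small cells lower than each, at -0.14 and -1.03. For interferon genes ADR outgrowth of 4146 stood apart at 1.14, and small cells read 0.12 and 0.18. Big outgrowth cells had received the same compounds as the small cells. They read -0.72 and -0.27 for replication, -0.47 and -0.32 for repair, and -0.92 and 0.18 for cholesterol synthesis. For glycolysis they read 0.15 and 0.06.

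A further test asked whether 4-OHT went with the same difference after 14 days as at 5 days, that is ADR with 4-OHT minus ADR. No gene passed for the difference of these differences (0.00% of 11234, limma, lowest adjusted p = 0.361), and 954 had an unadjusted p under 0.05 (8.49%). At 5 days the replication median was -0.30, -0.61 and -1.29 in lymphomas 4146, 4936 and 5043, against -0.24 and -1.29 in the outgrowths of 4146 and 4936. Glycolysis genes had -0.10, 0.81 and -0.06 at 5 days, against -0.51 and -0.59. The 5-day array of 4936 with ADR alone is one of the 3 arrays with high Xist. That of 4146 with ADR and 4-OHT had a low Xist of 2.78.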

How the data were processed

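Total RNA was labelled by the one-cycle protocol and hybridised to Affymetrix mouse arrays, per the labels' protocols. The authors deposited signals on the log2 scale, for which the submitters' processing notes name RMA and Partek, with versions and order not given in the sources used here. Values ran from -1.95 to 15.87. All 45101 probe sets had equal medians in each lymphoma (tolerance 1e-06), which shows that lymphoma offsets were taken out before deposit. The ADR outgrowth of 5043 held no values.

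Of the probe sets, 34958 had 1 gene symbol, 932 several and 9211 none in the platform annotation. A gene was tested if 2 or more of the 4 arrays reached 4.86, the median over all values. The model (limma 3.58.1, R 4.3.3) used 16 arrays, leaving out small outgrowth of 5043, with 6 groups and lymphoma as a block, 8 residual and 2.85 prior degrees of freedom, Benjamini-Hochberg at 0.05. Its estimate is the mean of both paired differences. The pairing comes from the lymphoma numbers, each of which marks 1 primary lymphoma. The labels do not say whether a lymphoma was cultured more than once, so p-values measure the spread between these arrays. Precision is limited by the number of arrays, which have no depth.

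The members and the 34 gene lists (999 entries, 922 with a named probe set, 764 tested) were chosen with earlier results of these data known. Named were the 12 genes each way with the largest smaller-of-2 difference, 8 fixed genes and 2 or more members per list; further list members, and the motifs, were chosen after their values were seen. No list had a set test. Alternatives changed the arrays, block, filter, probe sets, scaling and variance model. The method was tested on simulated data.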

Additional observations from a re-analysis of the deposited data

Results flagged for a closer look

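The fibroblast and stromal list had a median difference of 0.64 between small and ADR outgrowth, with 0.72 in 4146 and 0.55 in 4936. It drew attention because the change that went with 4-OHT at 5 days had the other sign in every lymphoma, at -0.79, -0.68 and -0.16 in 4146, 4936 and 5043. That difference was not tested. The median was 0.38 with values under the floor set to the floor. Only 12 of 24 genes of the list entered. For big minus ADR outgrowth the list median was larger, at 2.31 in 4146 and 2.19 in 4936. The 5-day value of 4936 uses an array with high Xist, and that of 4146 an array with low Xist.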

How the results depend on the processing

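The count of 0 genes passing became 3 with no replicate block (C2cd3, Pcnt and Zfp518a, each lower, limma adjusted p = 0.0399) and 1, Hspb1, without the untreated array of 4146. It stayed 0 under the other alternatives run: other sets of arrays, filters, probe sets, scalings, variance models, values under the floor set to it and each lymphoma alone. Genes with an unadjusted p under 0.05 numbered from 786 (the 4 arrays alone) to 3073 (every probe set on its own). The count of 25 lower replication genes was 13 with the 4 arrays alone, ran from 1 to 32 when a lymphoma was left out, and from 19 to 33 otherwise. For the difference from the 5-day change the count stayed 0 in all 7 alternatives run.

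Of the 91 named genes, 3 reversed outside the runs that left out a lymphoma: Bcl2 at -0.0504 with 17 arrays and -0.0255 with the mean over probe sets, Cdkn1a at 0.0773 after quantile normalisation, and Cdkn2a at -0.11 with values under the floor set to it, an alternative chosen after seeing the data. Leaving out a lymphoma gave ranges that span 0 for genes of opposite sign: Max -0.0414 to 0.47, Cdkn1a -1.24 to 1.18, Gbp2 -4.21 to 1.81, Icam1 -2.23 to 0.17, Lef1 -0.22 to 2.02, Sox4 -0.0845 to 2.45, Id2 -2.66 to 0.28, Prtn3 -2.39 to 0.59, Bcl2 -0.59 to 1.51, Cdkn2a -0.22 to 0.39, H2-Ab1 -0.0282 to 2.56, H1f2 -0.65 to 3.64 and H1f4 -0.49 to 1.88. Of 272 list medians recomputed, 31 moved beyond their spread and 4 turned sign with both lymphomas kept. The cause was not tested. The 2 pairs limit every value.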

Other observations

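Genes with symbols starting Zfp, most of which encode zinc finger proteins, were looked at after several of them had been seen among the lower genes, so the counts below are a description. Of 248 such genes tested, 118 were lower in the small cells of both lymphomas (47.6%), against 27.2% of the 10986 other genes. Higher in both were 36, against 29.3% of all genes. An unadjusted p under 0.05 was reached by 45 in the lower direction and 10 in the higher, against 8.60% and 5.83% of all genes. The median difference was -0.27 in 4146 and -0.16 in 4936, against 0.03 and -0.0044 for the other genes. Relative to untreated cells the Zfp median was 0.22 in ADR outgrowth and -0.11 in small outgrowth of 4146, 0.11 and 0.08 in those of 4936, and -0.22 and -0.07 in big outgrowth. Zfp458, among the 12 lowest genes, read 5.79 and 3.99 in 4146 and 6.19 and 4.52 in 4936, with both small arrays under the floor. The gap between 3′ and 5′ Actb probe sets also differed between the groups, and its part in these values was not tested.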
